A study of Homo sapiens with 4 samples.

Results

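The 50 regions described here, of 5326 in all, are those whose closest gene in the authors' tables belongs to a family of developmental transcription factors. They were chosen by gene symbol alone: the HOXA to HOXD, FOXA to FOXS, SOX, TBX, PAX, LHX, KLF, CUX, IRX, HES and DLX symbols and those of the sine oculis homeobox family (SIX5 and its relatives), each going on with a digit, and all NKX symbols. No read number entered this rule, but the rule was set with earlier results of these data known. The 50 regions lay closest to 35 genes of 12 families on 15 chromosomes, and no region in the tables was listed closest to an IRX gene. FOX genes had 14 regions, TBX and CUX genes 7 each, KLF genes 6, LHX genes 4 and HES genes 3. HOX, DLX and PAX genes had 2 each, and NKX2-5, SIX5 and SOX13 1 each. Of the 50, 5 were listed closest to the antisense RNA genes FOXN3-AS1, TBX2-AS1 and PAX8-AS1, which carry the name of a factor gene but encode no factor themselves.

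The study asked which genes HNF4A occupies at different glucose levels. It used chromatin immunoprecipitation with sequencing (ChIP-seq), in which an antibody pulls down a protein together with its DNA, in HCCLM3, an established human hepatocellular carcinoma cell line. There were 4 libraries, 1 per group: HNF4A at high glucose, IgG at high glucose, HNF4A at low glucose and IgG at low glucose, where IgG is a nonspecific antibody that gives the background. Per the labels, stable overexpression lines of these cells were made by lentiviral transduction under a CMV promoter vector, but the labels name neither the gene carried by each library's cells nor the glucose concentrations. The growth protocol is the same for all 4 libraries and names a high glucose medium. ChIP-seq gives no expression values, so the liver identity of the cells was not checked against marker genes.

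HNF4A is a nuclear receptor that keeps hepatocyte genes active and binds DNA as a homodimer. The families treated here are set apart by their DNA-binding domains. HOX, NKX, LHX, DLX and CUX proteins and SIX5 carry a homeodomain, PAX proteins a paired domain, FOX proteins a forkhead domain, TBX proteins a T-box, SOX proteins an HMG box and KLF proteins zinc fingers that bind GC-rich boxes. HES proteins are basic helix-loop-helix repressors, of which HES1 acts downstream of Notch. Many of these genes pattern the embryo and are silent in adult hepatocytes, while several KLF and FOX genes are active in adult liver.

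Sequence of the regions themselves was not used here. RefSeq promoters of build GRCh38.p14 were matched by symbol for 21 of the 35 genes, as 29 promoters, of which the 250 bases before the start were searched. The place of a promoter relative to a region was not used here, since the regions are in hg19. The full HNF4A element CAAAGTCCA, searched on both strands, was in 0 of the 29, where 0.325% of 35116 promoters of the same length held it, and CAAAGGTCA was in 0 of the 29, against 0.339%. The looser form CAAAGNNCA, which includes both of these, was also in 0 of the 29, against 4.44% of all promoters. The shorter core CAAAG, which lies within each of them, was in 10 of the 29 promoters, of 8 genes, against 42.1% of all promoters. The promoters of KLF6, whose region had a high ratio over IgG at both glucose levels, and of FOXQ1, whose region had the highest ratio of high over low glucose, are shown with that core in capitals. A match or its absence is a description of these letters only.
KLF6, chr10:3785210-3785459, minus strand, 250 bases before the start, with CTTTG, the reverse complement of CAAAG, in capitals: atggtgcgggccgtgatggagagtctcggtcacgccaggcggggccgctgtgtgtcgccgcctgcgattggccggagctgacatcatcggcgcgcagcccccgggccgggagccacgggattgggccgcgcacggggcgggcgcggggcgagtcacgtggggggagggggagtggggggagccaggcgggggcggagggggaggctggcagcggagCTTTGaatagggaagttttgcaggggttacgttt
FOXQ1, chr6:1311848-1312097, plus strand, 250 bases before the start, with CTTTG in capitals: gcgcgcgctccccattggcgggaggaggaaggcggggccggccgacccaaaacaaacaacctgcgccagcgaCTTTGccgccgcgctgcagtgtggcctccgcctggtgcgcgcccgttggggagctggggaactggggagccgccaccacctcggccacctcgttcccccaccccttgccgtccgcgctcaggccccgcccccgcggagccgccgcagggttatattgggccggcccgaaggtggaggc
Both windows held 1 core, whose first base lay at position -34 from the start of KLF6 and at position -178 from that of FOXQ1. They held 28 and 29 CG dinucleotides.

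Over all 5326 regions the libraries held 402237 HNF4A and 249744 IgG reads at high glucose, and 295460 HNF4A and 198683 IgG reads at low glucose. In the 50 regions they held 3274 and 1628 reads at high glucose, and 2252 and 1119 at low glucose. Per region, HNF4A reads ranged from 22 to 194 (median 51) at high and from 16 to 145 (median 38) at low glucose. IgG reads ranged from 4 to 140 (median 25) and from 1 to 115 (median 19). Ratios below are log2 ratios of scaled reads (reads divided by relative library size), each followed in parentheses by an exact 95% Clopper-Pearson interval. That interval covers counting error only and takes the reads as independent, so it is too narrow where reads are PCR copies of 1 molecule. Each group is 1 library, so no difference could be set against a spread between replicates. The labels and headers do not say how the authors chose the regions, and if they were chosen by reads in these libraries an excess over IgG may be partly built in.

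At high glucose HNF4A exceeded IgG in 44 of the 50 regions, where 84.2% of all 5326 regions did. The excess was at least 2-fold in 23 of the 50, against 41.6% of all regions, and no member was 2-fold lower, against 1.05%. The median log2 ratio of the members was 0.89, and that of all regions 0.79. At low glucose HNF4A exceeded IgG in 49 of the 50, against 91.5% of all regions, and by at least 2-fold in 27 of the 50, against 46.8%. No member was 2-fold lower, against 0.488%. The medians there were 1.09 for the members and 0.94 for all regions. At least 2-fold excess at both glucose levels was seen in 18 of the 50, against 31.4% of all regions. The counting interval lay above 0 in 32 of the 50 at high glucose, against 55.2% of all regions, and in 33 at low glucose, against 56.2%, and it lay below 0 in none, against 2.07% and 0.713%. Of the 18 regions at 2-fold or more at both levels, 17 also had both intervals above 0, against 29.1% of all regions. These shares lay near those of all regions.

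No member passed an FDR of 0.05 in the authors' deposited tables, nor did any of the 5326 regions (0%). The lowest FDR of a member in the authors' deposited tables was 0.865 for HNF4A over IgG at high glucose, 0.820 at low glucose and 0.914 for high over low glucose. Where the p was taken without adjustment, the authors' deposited tables put 3 members above IgG at 0.05 at high glucose, against 4.96% of all regions, and 1 at low glucose, against 3.04%. None was lower than IgG at that p in the authors' deposited tables, against 0.0188% of all regions at high glucose and 0% at low glucose.

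**Figure D1:**
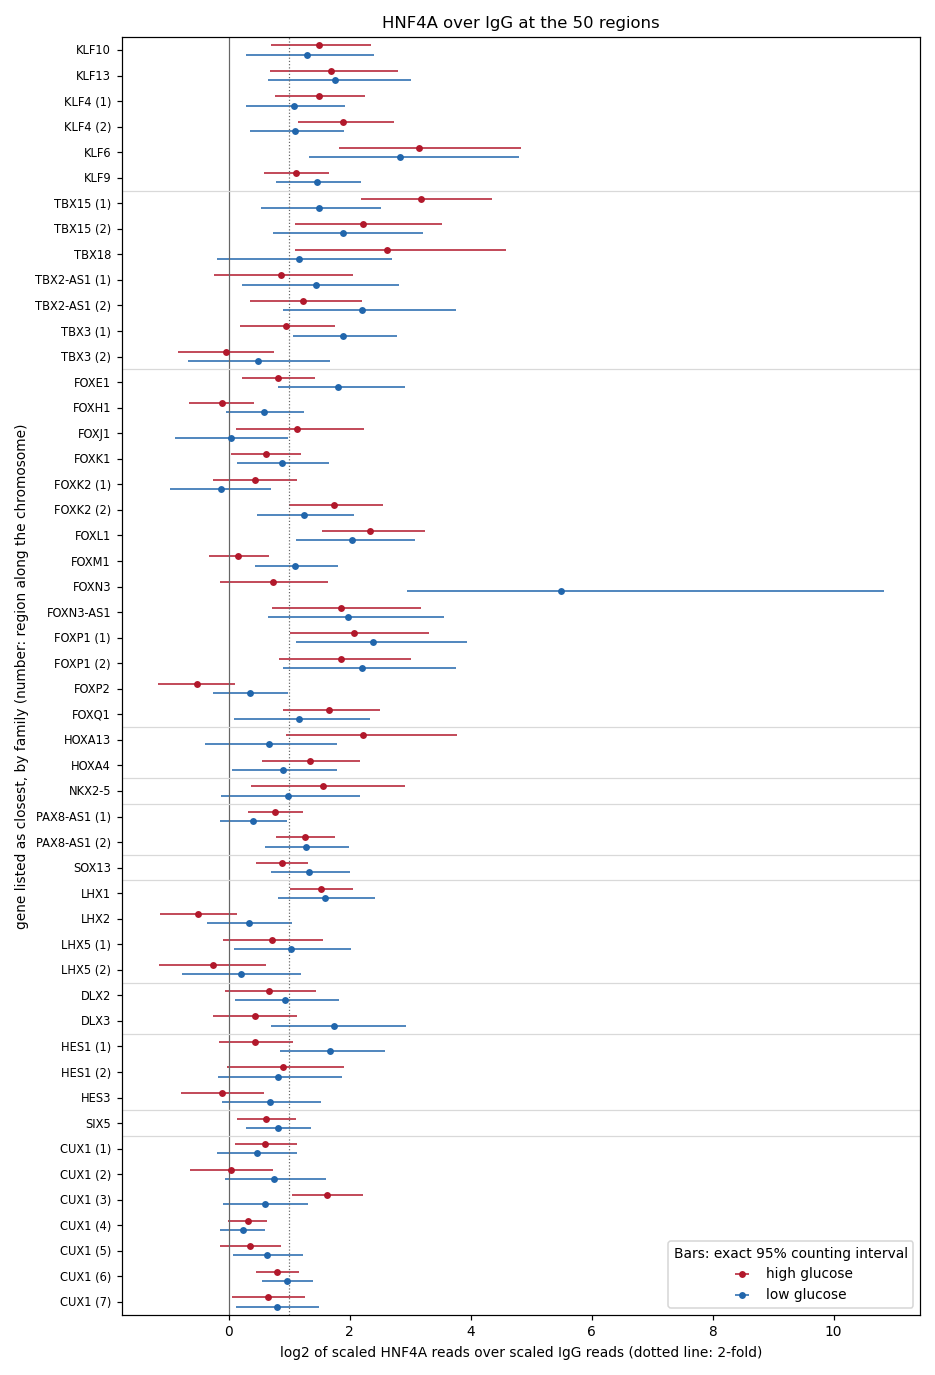
Log2 ratio of scaled HNF4A over scaled IgG reads at each of the 50 regions, by family, at high glucose (red) and at low glucose (blue), with exact 95% counting intervals as bars. All 6 KLF regions lie beyond 2-fold at both glucose levels, the 7 CUX1 regions mostly lie between 0 and 2-fold, and FOXN3 at low glucose stands apart at 5.50 with a long interval.

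The KLF regions were the family with HNF4A at least 2-fold above IgG in every region at both glucose levels, 6 of 6, against 31.4% of all regions, among the families with 3 or more regions. Their median log2 ratios were 1.59 (high glucose) and 1.38 (low glucose), where all regions had 0.79 and 0.94. Median HNF4A levels were 53.2 and 35.3 scaled reads per kb, against 41.7 and 33.1 for all regions. Median IgG levels were 16.8 and 14.4, against 25.1 and 17.0. Every KLF interval lay above 0, against 55.2% of all regions at high and 56.2% at low glucose. The difference between families was not tested. KLF6, a zinc finger factor induced early after injury and growth signals, had the highest ratio of the family. Its region (hg19 chromosome 10, 3852251 to 3853079) held 49 HNF4A and 5 IgG reads at high glucose, and 29 HNF4A and 4 IgG reads at low glucose. These gave log2 ratios of 3.15 (1.83 to 4.83) and 2.83 (1.32 to 4.80). Its p at high glucose was 0.0399 in the authors' deposited table. Both IgG libraries were low there, at 6.1 and 4.9 scaled reads per kb, while the HNF4A libraries held 53.8 and 35.0.

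KLF4, known as a reprogramming factor and a regulator of epithelial differentiation, was listed closest to 2 regions 505 kb apart. The one farther from the chromosome start (chromosome 9, 110855841 to 110857015) held 74 HNF4A and 18 IgG reads at high glucose and 48 and 22 at low glucose. Its log2 ratios were 1.89 (1.14 to 2.72) and 1.10 (0.34 to 1.90). The other held 68 HNF4A and 22 IgG reads at high glucose and 43 and 20 at low glucose, with log2 ratios of 1.48 (0.77 to 2.25) and 1.08 (0.28 to 1.92). The intervals of the 2 regions overlapped at each glucose level. KLF9, a glucocorticoid-responsive factor, had the widest KLF region, 1729 bp, and held 100 HNF4A and 42 IgG reads at high glucose and 70 and 25 at low glucose. Its ratio was the lowest of the family at high glucose, at 1.11 (0.57 to 1.66), and stood at 1.46 (0.78 to 2.18) at low glucose. KLF10, a TGF-beta-induced factor, stood at 1.49 (0.70 to 2.35) and 1.30 (0.29 to 2.40), and KLF13 at 1.68 (0.69 to 2.79) and 1.76 (0.65 to 3.01).

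T-box regions had medians of 1.23 at high and 1.48 at low glucose, against 0.79 and 0.94 for all regions. At both levels 4 of 7 were at least 2-fold above IgG, against 31.4% of all regions, and the family held both high and low ratios. Median HNF4A levels were 36.3 scaled reads per kb at high and 35.0 at low glucose, against 41.7 and 33.1 for all regions. Median IgG levels were 16.2 and 11.9, against 25.1 and 17.0. The part of this low background in the T-box ratios was not tested. TBX15, known in mice for its part in skeletal and skin pattern, was listed closest to 2 regions 2.27 kb apart. The first (chromosome 1, 119502923 to 119503775) held 90 HNF4A and 9 IgG reads at high glucose, and 37 and 13 at low glucose. HNF4A was thus far above IgG at high glucose, at 3.18 (2.19 to 4.35), the highest member ratio there, and less so at low glucose, at 1.48 (0.54 to 2.52). In the authors' deposited table its p at high glucose was 0.00558, the lowest of a member. It also held the most HNF4A reads per length of any member at high glucose, 96.0 scaled reads per kb against 10.6 for IgG, and 43.4 against 15.5 at low glucose. The second TBX15 region held 41 HNF4A and 8 IgG reads at high glucose and 30 and 8 at low glucose, with log2 ratios of 2.21 (1.10 to 3.52) and 1.88 (0.72 to 3.22).

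TBX18, a factor of the epicardium and sinus node, had a region that held 27 HNF4A and 4 IgG reads at high glucose and 16 and 7 at low glucose. Its ratios were 2.61 (1.09 to 4.58) and 1.17 (-0.19 to 2.69), so the interval at low glucose included 0. The 2 regions of TBX3, a repressor needed for hepatoblast growth in mice, gave unlike ratios, though their intervals overlapped at each glucose level. The first (chromosome 12, 115049233 to 115050411) held 47 HNF4A and 22 IgG reads at high glucose and 60 and 16 at low glucose, with ratios of 0.95 (0.19 to 1.75) and 1.88 (1.07 to 2.78). The second, 55.3 kb further along, held 30 HNF4A and 28 IgG reads at high glucose and 17 and 12 at low glucose, and its ratios of -0.05 (-0.84 to 0.75) and 0.48 (-0.68 to 1.67) were not distinguishable from IgG at this depth. Of the 2 regions listed closest to TBX2-AS1, 229 kb apart, the one farther along stood at 1.23 (0.34 to 2.20) and 2.20 (0.90 to 3.76), and the other at 0.85 (-0.25 to 2.05) and 1.43 (0.21 to 2.81).

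**Figure D2:**
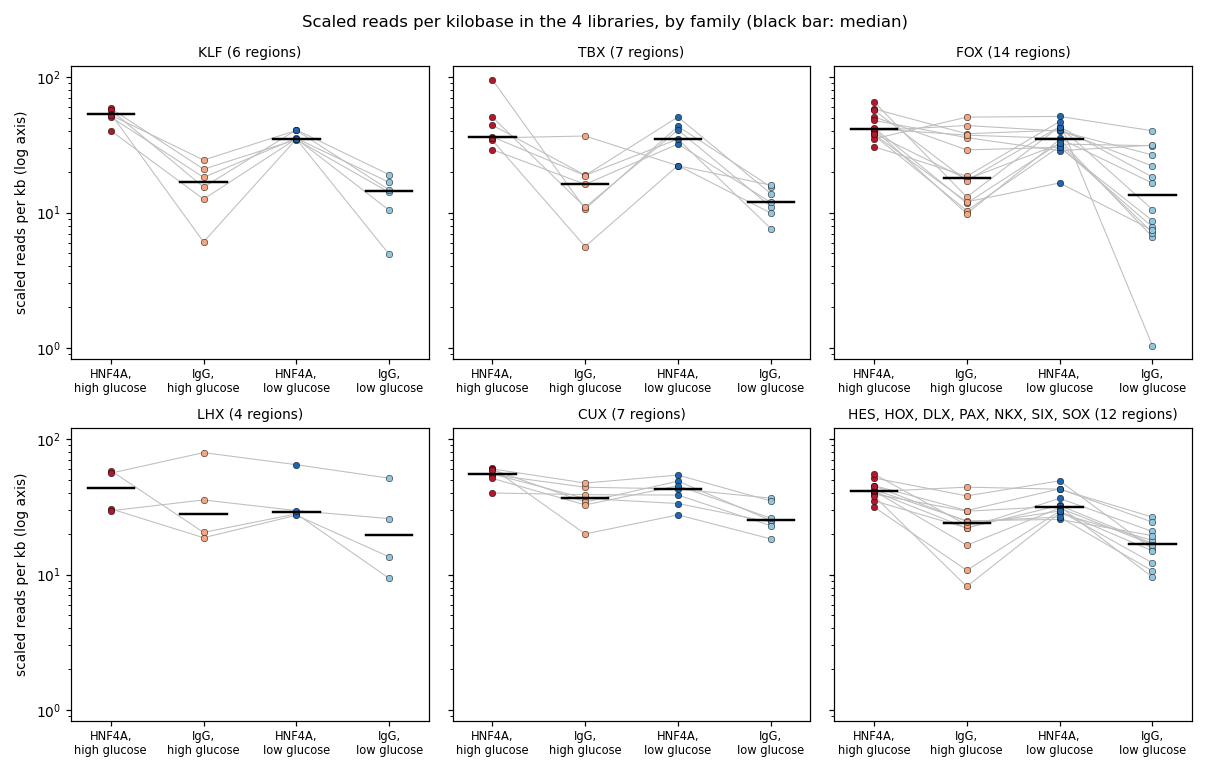
Scaled reads per kilobase (log axis) of each region in the 4 libraries, by family, with lines joining the values of 1 region and black bars at the medians. The HNF4A medians at high glucose lie between 36.3 and 55.3 for the 5 families drawn alone, and the IgG levels of single regions run from 5.6 for TBX18 to 79.6 for LHX2 at high glucose.

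HNF4A was at least 2-fold above IgG in 7 of the 14 forkhead regions at high glucose. At low glucose 9 were, and 6 were at both, where the shares of all regions were 41.6%, 46.8% and 31.4%. The medians were 0.97 and 1.20, against 0.79 and 0.94 for all regions. Median HNF4A levels were 41.6 scaled reads per kb at high and 35.0 at low glucose, against 41.7 and 33.1 for all regions. Median IgG levels were 18.1 and 13.5, against 25.1 and 17.0. Regions at 2-fold or more at both levels lay closest to FOXL1, FOXP1, FOXK2, FOXQ1 and FOXN3-AS1. FOXL1, known in mice from the mesenchyme under the gut epithelium, had a region (chromosome 16, 86697933 to 86699091) that held 84 HNF4A and 15 IgG reads at high glucose, and 50 and 12 at low glucose. Its log2 ratios were 2.34 (1.54 to 3.24) and 2.03 (1.10 to 3.08). The p for high glucose was 0.0316 in the authors' deposited table. The 2 regions of FOXP1, a repressor that acts in lymphoid and lung development, lay 269 kb apart, and their intervals overlapped at both glucose levels. They held 42 HNF4A and 9 IgG reads, and 40 and 10, at high glucose, and 32 and 6, and 28 and 6, at low glucose. Their ratios were 2.08 (1.02 to 3.30) and 1.85 (0.83 to 3.02) at high glucose, and 2.39 (1.11 to 3.94) and 2.20 (0.90 to 3.76) at low glucose.

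FOXK2, a factor that acts in metabolism together with its paralog FOXK1, was listed closest to 2 regions 48.0 kb apart, of which the region farther along was beyond 2-fold over IgG and the other was not, with overlapping intervals at both glucose levels. The region beyond 2-fold (chromosome 17, 80525787 to 80526898) held 70 HNF4A and 19 IgG reads at high glucose and 48 and 20 at low glucose, with ratios of 1.74 (0.99 to 2.55) and 1.24 (0.46 to 2.07). The other held 46 HNF4A and 31 IgG reads at high glucose, at 0.42 (-0.27 to 1.13), and 25 and 27 at low glucose. Its ratio at low glucose, -0.14 (-0.98 to 0.70), was the single member value below 0 at that glucose level. FOXK1 itself had ratios of 0.61 (0.04 to 1.20) and 0.88 (0.14 to 1.66). FOXQ1, a factor of epithelial-mesenchymal change, stood at 1.66 (0.89 to 2.50) and 1.16 (0.08 to 2.33), and FOXN3-AS1 at 1.85 (0.71 to 3.18) and 1.97 (0.65 to 3.55).

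The region of FOXN3, a repressor acting in the cell cycle and in liver glucose metabolism, held 33 HNF4A and 18 IgG reads at high glucose, where the ratio was 0.73 (-0.14 to 1.64). At low glucose it held 46 HNF4A reads, and IgG was listed at 1 read. No value in the tables is below 1 read, so this may also stand for none. The resulting ratio, 5.50 (2.95 to 10.83), was the highest of all 5326 regions at low glucose, and in the authors' deposited table its p was 0.00117. High over low glucose stood at -0.61 (-1.31 to 0.06) for HNF4A reads there and at 4.15 (1.49 to 9.53) for IgG reads, so most of the difference in ratio came from the IgG reads.

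FOXM1, a driver of mitotic genes, held 79 HNF4A and 64 IgG reads at high glucose and 61 and 28 at low glucose. Its ratio over IgG was 0.16 (-0.34 to 0.66) at high glucose, against 1.10 (0.43 to 1.80) at low glucose, while the HNF4A reads alone differed by 0.24 (-0.26 to 0.74). FOXE1, a thyroid factor, stood at 0.81 (0.22 to 1.43) and 1.80 (0.81 to 2.91), and FOXJ1, the factor of motile cilia, at 1.13 (0.11 to 2.23) and 0.04 (-0.89 to 0.98). At high glucose the lowest forkhead ratios lay closest to FOXP2, a factor of the lung and brain, at -0.53 (-1.17 to 0.10) and 0.35 (-0.27 to 0.98), and to FOXH1, a partner of SMAD proteins in nodal signalling, at -0.12 (-0.66 to 0.42) and 0.59 (-0.05 to 1.23). Neither was distinguishable from IgG at this depth at either glucose level.

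Of the HOX clusters, only HOXA had members, with 1 region each for HOXA13 and HOXA4. Both were above IgG at both glucose levels, where 84.2% of all regions were at high and 91.5% at low glucose. HOXA13, the most posterior gene of its cluster, held 31 HNF4A and 6 IgG reads at high glucose and 21 and 13 at low glucose. Its ratios were 2.22 (0.94 to 3.77) and 0.67 (-0.40 to 1.79). HOXA4 held 53 and 19 reads at high glucose and 36 and 19 at low glucose, with ratios of 1.33 (0.55 to 2.17) and 0.90 (0.06 to 1.78). NKX2-5, the cardiac homeobox gene, stood at 1.55 (0.37 to 2.91) and 0.97 (-0.13 to 2.17) on 26 HNF4A and 8 IgG reads at high glucose and 22 and 11 at low glucose.

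The regions of PAX8-AS1, SOX13 and SIX5 were wide, from 2002 to 2781 bp against a median of 1085 bp for members and 1030 bp for all regions, and their larger read numbers gave narrower intervals. PAX8-AS1 is named for the thyroid and kidney factor PAX8. The region at 113997849 to 114000021 on chromosome 2 held 132 HNF4A and 50 IgG reads at high glucose and 64 and 26 at low glucose, with ratios of 1.25 (0.77 to 1.75) and 1.27 (0.59 to 1.99). The other, 19.8 kb away, stood at 0.76 (0.32 to 1.22) and 0.40 (-0.15 to 0.95). SOX13, a SoxD factor, held 138 HNF4A and 68 IgG reads at high glucose and 74 and 29 at low glucose, with ratios of 0.87 (0.45 to 1.32) and 1.33 (0.69 to 2.0). SIX5, a homeobox factor of muscle and eye, had 100 HNF4A and 59 IgG reads at high glucose, and 86 and 48 at low glucose, with ratios of 0.62 (0.14 to 1.10) and 0.82 (0.29 to 1.36). All 4 of these regions had intervals above 0 at high glucose, against 55.2% of all regions.

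The LHX, DLX and HES regions had medians of 0.22, 0.55 and 0.44 at high glucose, below the 0.79 of all regions, and of 0.68, 1.34 and 0.81 at low glucose, where all regions had 0.94. LHX1, a LIM homeobox factor of kidney and head formation, had a region (chromosome 17, 35291989 to 35294054) that held 133 HNF4A and 42 IgG reads at high glucose, and 58 and 19 at low glucose. Its ratios were 1.52 (1.01 to 2.05) and 1.58 (0.82 to 2.41). LHX2, known in mice from the forebrain and from hepatic stellate cells, held 39 and 50 reads at high glucose and 41 and 32 at low glucose. It had the highest IgG level per length of any member, 79.6 scaled reads per kb at high and 51.5 at low glucose, and ratios of -0.50 (-1.15 to 0.13) and 0.33 (-0.37 to 1.05). The 2 regions of LHX5, 17.0 kb apart, stood at 0.71 (-0.10 to 1.55) and -0.27 (-1.15 to 0.61) at high glucose and at 1.02 (0.09 to 2.02) and 0.20 (-0.78 to 1.19) at low glucose.

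HES1, the main Notch target of the bile duct lineage, was listed closest to 2 regions 10.9 kb apart. The first held 60 HNF4A and 40 IgG reads at high glucose and 52 and 16 at low glucose, giving 0.44 (-0.16 to 1.05) and 1.67 (0.84 to 2.58). The second held 31 and 15 at high glucose and 25 and 14 at low glucose, giving 0.90 (-0.03 to 1.90) and 0.81 (-0.19 to 1.87). HES3, a neural HES gene, stood at -0.11 (-0.80 to 0.59) and 0.68 (-0.12 to 1.52). Of the distal-less homeobox genes, DLX2 stood at 0.67 (-0.07 to 1.44) and 0.94 (0.10 to 1.82), and DLX3 at 0.42 (-0.27 to 1.13) and 1.74 (0.69 to 2.92), with 31 IgG reads at high glucose against 10 at low glucose.

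CUX1, a cut-homeobox factor with many isoforms and start sites, was listed closest to 7 regions over 297 kb of chromosome 7 (101372269 to 101668825), and 7 genes of the tables had more regions. Summed over the 7, it had 777 HNF4A and 460 IgG reads at high glucose and 534 and 347 at low glucose. HNF4A exceeded IgG in 7 of 7 at both glucose levels, where 84.2% of all regions did at high and 91.5% at low glucose. The excess was at least 2-fold in only 1 at high glucose, the third, against 41.6% of all regions. At low glucose it was 2-fold in 0 of them, against 46.8%. The medians were 0.60 and 0.63, below the 0.79 and 0.94 of all regions, and near the 0.64 and 0.69 of the other 487 regions on chromosome 7. IgG was high over these regions: the CUX1 medians were 36.5 and 25.1 scaled reads per kb, against 29.5 and 20.8 for the other chromosome 7 regions and 24.7 and 16.7 for regions on other chromosomes. The part of this background in the low ratios was not tested.

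Among the CUX1 regions, the third along the chromosome (101452855 to 101454521) had the highest ratio at high glucose. Its interval overlapped those of the first, sixth and seventh regions. It held 112 HNF4A and 33 IgG reads at high glucose and 46 and 30 at low glucose, with ratios of 1.62 (1.05 to 2.22) and 0.59 (-0.10 to 1.30). The fourth, 1.95 kb beyond it and the widest member at 3194 bp, held 192 and 140 reads at high glucose and 137 and 115 at low glucose. Its ratios were 0.31 (-0.01 to 0.63) and 0.23 (-0.14 to 0.60). The sixth (101523854 to 101526817) held 194 and 101 reads at high glucose and 145 and 73 at low glucose, with ratios of 0.80 (0.44 to 1.16) and 0.96 (0.55 to 1.39). The other 4 ranged from 0.04 to 0.65 at high glucose and from 0.46 to 0.79 at low glucose.

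**Figure D3:**
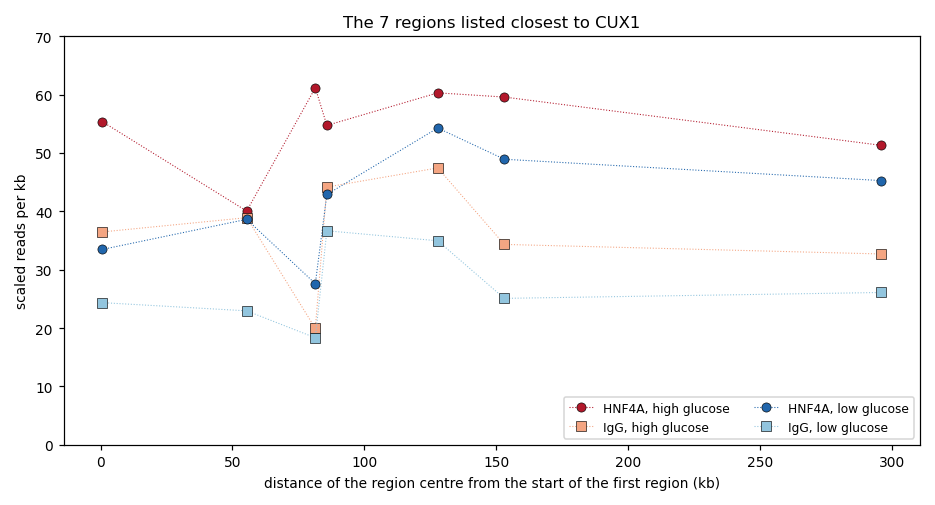
Scaled reads per kilobase in the 4 libraries at the 7 regions closest to CUX1, by distance of the region's centre from the start of the first region; dotted lines join values of 1 library and do not show reads between regions. At the third region HNF4A at high glucose stands at 61.2 and IgG at 19.9, the widest gap of the 7, and at the second region HNF4A and IgG at high glucose nearly meet, at 40.0 and 38.9.

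HNF4A exceeded IgG at both glucose levels in 43 of the 50 regions. Each level taken singly, 84.2% of all regions did so at high and 91.5% at low glucose. In the other 7 the sign differed between glucose levels, where 16.2% of all regions did so. HNF4A was below IgG at high glucose and above it at low glucose for FOXH1, FOXP2, HES3, LHX2, the second LHX5 and the second TBX3 region, and the reverse held for the first FOXK2 region. The intervals of these 7 included 0 at both levels. Across the 50 regions, which are not replicates and share the 4 libraries, the ratios at high and at low glucose had a Spearman correlation of 0.600 and a Pearson correlation of 0.404, against 0.607 and 0.561 over all regions.

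**Figure D4:**
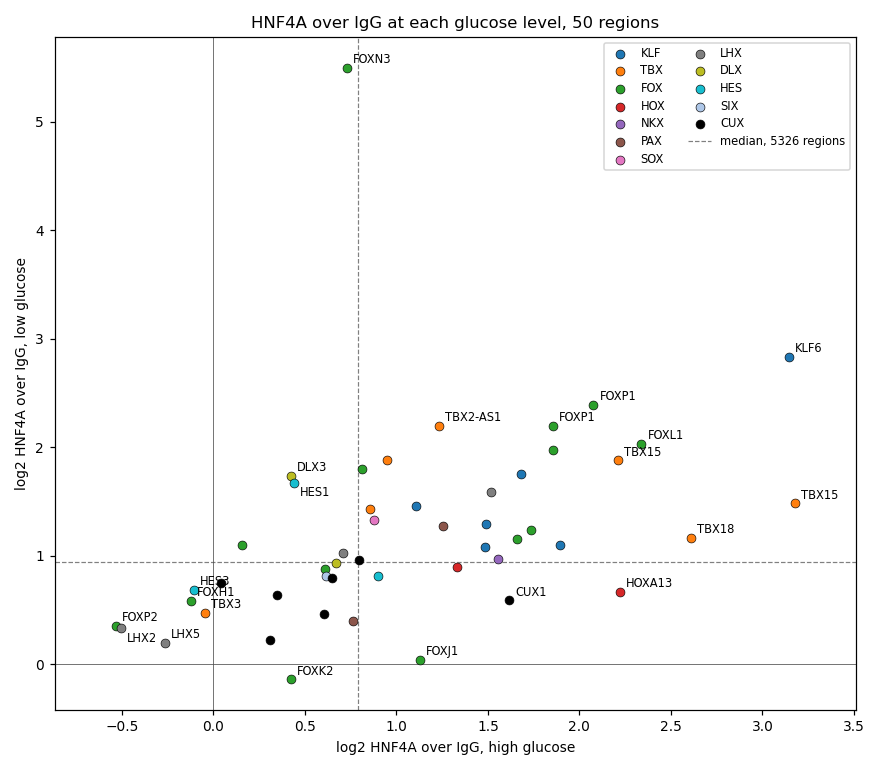
Log2 ratio of scaled HNF4A over IgG reads at low glucose (vertical) against that at high glucose (horizontal) for the 50 regions, coloured by family, with dashed lines at the medians of all 5326 regions (0.79 and 0.94). KLF6, FOXP1, FOXL1 and TBX15 lie at the upper right, FOXN3 stands alone at 0.73 and 5.50, and most CUX1 points lie below both medians.

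High glucose went with more scaled HNF4A reads in 43 of the 50 regions, against 81.8% of all regions. The median log2 ratio of high over low glucose was 0.33, and that of all regions 0.36, so it lay above 0 before and below 0 after the median of all regions was subtracted. Scaled IgG reads were likewise more numerous at high glucose in 41 of the 50, against 77.9% of all regions, with a median of 0.44 against 0.51. IgG was at least 2-fold higher in 9 members, against 19.4% of all regions, and 2-fold lower in 1, HOXA13, against 3.38%. Its interval lay above 0 in 12 of the 50, against 26.2%, and below 0 in none, against 1.93%. At least 2-fold more scaled HNF4A reads at high glucose were found in 4 of the 50, against 6.78% of all regions, and no member was 2-fold lower, against 0.713%. These 4 lay closest to FOXQ1, CUX1, TBX15 and LHX1, and they were also the 4 members that the authors' deposited table lists at a p below 0.05 without adjustment, against 4.39% of all regions. None was lower at that p in the authors' deposited table, against 0.225%. After subtraction of the median of all regions none of the 4 reached 2-fold.

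FOXQ1 (chromosome 6, 1325115 to 1326624) had 63 HNF4A reads (high glucose) and 25 (low glucose), a log2 ratio of 1.20 (0.51 to 1.93), with 18 and 11 IgG reads, at 0.69 (-0.47 to 1.92). The third CUX1 region held 112 and 46 HNF4A reads, at 1.15 (0.64 to 1.68), with IgG at 0.12 (-0.64 to 0.89). The first TBX15 region held 90 and 37, at 1.15 (0.58 to 1.74), and IgG stood at -0.55 (-1.95 to 0.79). In all 3 the IgG interval included 0. The LHX1 region held 133 and 58 HNF4A reads, at 1.06 (0.61 to 1.53), and its IgG reads, 42 and 19, stood at 1.13 (0.32 to 1.99), with an interval above 0. In the authors' deposited table the p-values of these 4 were 0.0423, 0.0298, 0.0381 and 0.0368.

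The HNF4A interval for high over low glucose lay above 0 in 13 of the 50, against 25.8% of all regions, and none lay below 0, against 0.826%. Besides those 4 regions, the 13 included SOX13, at 0.76 (0.35 to 1.19), where IgG stood at 1.21 (0.57 to 1.89), and both PAX8-AS1 regions, at 0.73 (0.29 to 1.18) and 0.91 (0.47 to 1.36), where IgG stood at 0.36 (-0.19 to 0.92) and 0.93 (0.22 to 1.67). KLF10 at 0.76 (0.10 to 1.46), FOXE1 at 0.75 (0.17 to 1.35) and FOXL1 at 0.61 (0.09 to 1.15) were also among them. So were the first FOXK2 region at 0.74 (0.01 to 1.51) and the first and the fourth CUX1 regions at 0.73 (0.21 to 1.26) and 0.35 (0.03 to 0.68). At FOXE1 the IgG ratio, 1.73 (0.73 to 2.85), was larger than that of HNF4A. IgG stood at 0.57 (-0.56 to 1.76) for KLF10, 0.31 (-0.89 to 1.53) for FOXL1 and 0.18 (-0.61 to 0.98) for this FOXK2 region. For these CUX1 regions it stood at 0.58 (-0.06 to 1.24) and 0.27 (-0.10 to 0.64). The 7 regions with fewer scaled HNF4A reads at high glucose were led by FOXN3, FOXP2, at -0.55 (-1.19 to 0.08), and the first TBX3 region, at -0.49 (-1.07 to 0.09), and each of their intervals included 0.

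**Figure D5:**
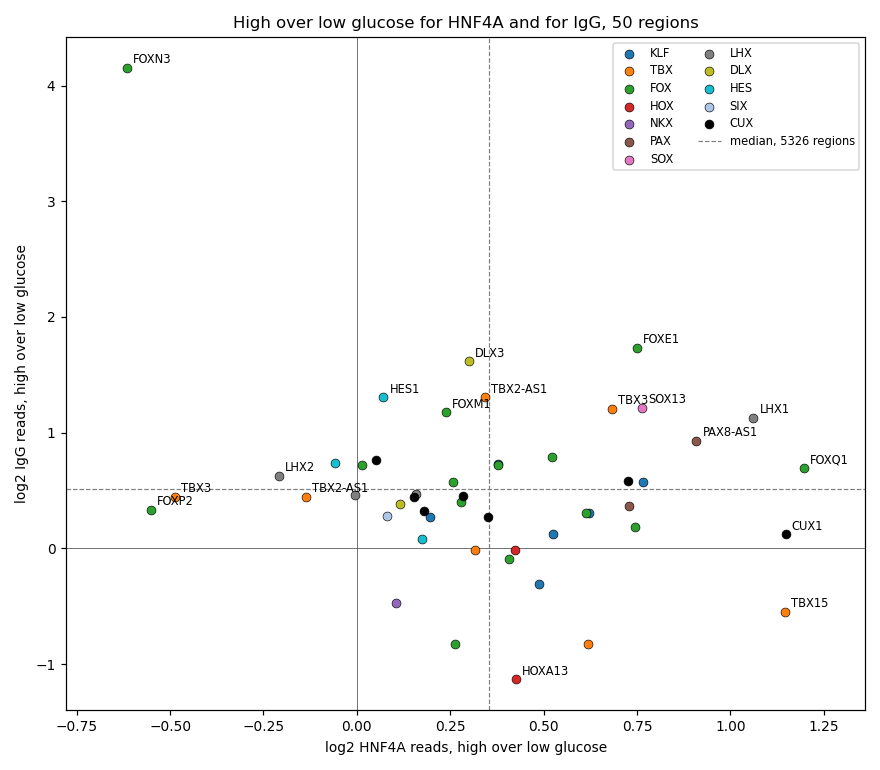
Log2 ratio of scaled reads at high over low glucose for IgG (vertical) against HNF4A (horizontal) at the 50 regions, coloured by family, with dashed lines at the medians of all 5326 regions (0.36 for HNF4A and 0.51 for IgG). FOXQ1, CUX1, TBX15 and LHX1 lie farthest to the right, at 1.06 to 1.20, with IgG from -0.55 to 1.13, and FOXN3 lies at the upper left, at -0.61 and 4.15.

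High glucose had the higher HNF4A over IgG ratio in 20 of the 50 regions, against 41.7% of all regions, and low glucose in the other 30. The members' median difference (high minus low) was -0.16, and that of all regions -0.15. An exact conditional test of the 4 read numbers, adjusted by Benjamini-Hochberg over all 5326 regions, compares these libraries and not the conditions. It called 1 member, FOXN3, at an adjusted p of 0.00329, against 1.3% of all regions. The difference for FOXN3 was -4.77 (-10.18 to -1.94). The first TBX15 region followed in the other direction, at 1.69 (0.21 to 3.22), with an adjusted p of 0.219 in the same exact test. HES1, first region, at -1.24 (-2.33 to -0.17), DLX3 at -1.32 (-2.69 to -0.02), FOXM1 at -0.94 (-1.80 to -0.09) and the third CUX1 region at 1.03 (0.09 to 1.96) had intervals without 0, and did not pass after adjustment.

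Of 30 listed family members known from liver or gut endoderm, 14 had a region and 16 did not, among them FOXA1, FOXA2, FOXA3, the pioneer factors of liver, and SOX9, the bile duct factor. The 14 had 24 regions, 7 of them closest to CUX1. HNF4A was above IgG in 21 of the 24 at high and in 24 of 24 at low glucose, and at least 2-fold above it in 10 and 12. Of all regions, 84.2% and 91.5% were above IgG, and 41.6% and 46.8% at least 2-fold. The medians were 0.89 and 1.02, against 0.89 and 1.09 for all 50 members and 0.79 and 0.94 for all regions. The median of high over low glucose for HNF4A was 0.37, against 0.36 for all regions, with 21 of 24 above 0, against 81.8%, and 2 at 2-fold or more, against 6.78%.

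Other developmental transcription factors, outside these families, were represented by 17 of 105 listed genes with 21 regions. HNF4A was above IgG in 19 of the 21 at high and in 21 of 21 at low glucose, and at least 2-fold above it in 13 at each, where the shares of all regions were 84.2% and 91.5%, and 41.6% and 46.8%. The medians were 1.41 and 1.41, against 0.79 and 0.94 for all regions. Median HNF4A levels were 44.7 scaled reads per kb at high and 33.7 at low glucose, against 41.7 and 33.1 for all regions. Median IgG levels were 17.2 and 12.3, against 25.1 and 17.0. RUNX1, the haematopoietic factor, had 2 regions at 2.91 (1.20 to 5.28) and 3.18 (1.13 to 6.32) at high glucose, and at 2.71 (0.96 to 5.10) and 2.88 (0.78 to 6.05) at low glucose, on 2 or 3 IgG reads each. POU2F1, at -0.37 (-0.999 to 0.26), and 1 of 2 TEAD1 regions, at -0.12 (-0.71 to 0.48), were the 2 below IgG at high glucose, with intervals that included 0. High over low glucose for HNF4A had a median of 0.44 in these 21 regions, against 0.36 for all regions, with 20 above 0, against 81.8%, and 0 at 2-fold or more, against 6.78%.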

How the data were processed

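HNF4A and IgG ChIP-seq libraries at 2 glucose levels were compared through 3 tables of comparisons that the authors deposited, joined on chromosome, start and end. The submitters' processing notes name hg19 and, with no role, HOMER, DiffBind, MACS, Bowtie 1.1.2 and bcl2fastq. Per the file headers and values, the authors' levels are log2 scaled read numbers and their fold is a difference of 2 log2 levels. The authors' deposited p-value and FDR are quoted as deposited. The closest gene is the authors', no distance is used, and each start is printed 1 base above the deposited one, read as a 0-based coordinate. Another 2 columns of per-library levels, in the table of HNF4A alone, were not used.

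Without the log, 100% of the 5326 levels of each library were whole multiples of 1 step, within 0.01, which gave the reads. Relative library sizes were 1.10 for HNF4A and 0.993 for IgG at high glucose, and 1 and 0.982 at low glucose. The full depth of the libraries is unknown. Ratios were computed with Python 3.11.15 and SciPy 1.17.1, checked on simulated reads. Nothing was filtered. Called means at least 2-fold. The members, lists and tests were chosen with earlier results of these data known. Named were, per comparison, the 8 highest and 6 lowest members whose mean level reached the median of all regions and those with p under 0.05. Added to these were the highest region of each family and genes with 2 or more regions. Regions 2-fold over IgG at both glucose levels with both intervals above 0 were also named. Together these rules give 44 of the 50. The other 6, the RUNX1, POU2F1 and TEAD1 examples and the promoters shown were added after the values were seen.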

Additional observations from a re-analysis of the deposited data

Results flagged for a closer look

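The FOXN3 region on chromosome 14 (89652475 to 89653451) was singled out by a difference of -4.77 on the log2 scale between its HNF4A over IgG ratios (high minus low glucose), in the exact conditional test of the reads of the 4 libraries adjusted over 5326 regions. It held 33 HNF4A and 18 IgG reads at high glucose, and 46 HNF4A reads with IgG listed at 1 read at low glucose. The value rests on that single IgG library, and 69 of the 5326 regions passed the same test.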

How the results depend on the processing

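No paired analysis was possible because each group has 1 library. The members' counts at 2-fold or more over IgG (23 at high glucose, 27 at low glucose, 18 at both) and at high over low glucose for HNF4A (4) became 14, 13, 7 and 0 at 3-fold, and 10, 7, 5 and 0 when the median of all regions was subtracted (centred). They stayed within 1.5 times with at least 20 reads, 1 region per gene, or, chosen after the data were seen, without CUX1, without antisense genes or with at least 5 reads in both IgG libraries. Joining the tables on shared bases gave the same 23, since no regions overlap. The median over IgG of 0.89 at high glucose became 0.10 centred, 1.13 with 1 region per gene, 0.79 with 5 scaled reads added to each side and 1.11 without CUX1. That of 1.09 at low glucose became 0.15, 1.24 and 0.90 under the first 3 of these. The median of 0.33 for HNF4A at high over low glucose turned to -0.026 when centred. Of the 132 values of named regions, 85 kept their sign when centred. Of those with an interval without 0, the sign turned for SIX5 (-0.17 at high and -0.12 at low glucose), PAX8-AS1 (-0.028 at high), DLX2 (-0.0033 at low), HOXA4 (-0.043 at low), CUX1 (-0.19 and -0.14 at high, -0.30 and -0.14 at low) and CUX1 at high over low glucose (-0.0037). Regions with under 10 IgG reads have ratios that 1 or 2 reads can move.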
